A study of Mus musculus with 6 samples.

Results

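The lysosomal proton pump (V-ATPase) and the cathepsins were examined as a set of 36 genes among the 17030 genes of the expression table. The members were chosen by symbol, as 22 genes whose names begin with Atp6v0, Atp6v1, Atp6ap1 or Atp6ap2 and 14 whose names are Cts followed by a single letter, so the rule itself uses no measured value. Atp6v1fnb came in through its name, which marks it as a neighbour of Atp6v1f, and it is not known as a pump subunit. The a3 subunit of the pump is named Tcirg1 and was therefore not a member, but it is described below because the a subunit results turn on it. RNA was sequenced from SCC7, a cultured line of mouse squamous carcinoma cells that serves in studies of head and neck tumours. There were 3 samples with the treatment label radiotherapy and 3 controls with the treatment label none. The dose of 9 Gy comes from a treatment protocol that is printed alike on all 6 samples, so the groups rest on the treatment label. All 6 samples came from the same line, grown with serum in high-glucose medium, and all were labelled day 0, so the interval from irradiation to harvest is not stated. Whether the samples of a group were separate cultures is not stated either, and the p-values below then measure no more than the spread among these samples, possibly technical. In such bulk RNA, fewer cells of a type and less RNA per cell cannot be told apart.

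The V-ATPase is a rotary pump that acidifies lysosomes and endosomes. Its cytosolic V1 sector hydrolyses ATP, with subunits A and B forming the catalytic ring. The membrane V0 sector carries protons through a ring of c subunits that turns against subunit a. Cathepsins are the proteases of the acidic lumen. Cathepsins B, L, Z, O, H, K, S and C are cysteine proteases, cathepsin D is an aspartic protease and cathepsin A is a serine carboxypeptidase that also protects other lysosomal enzymes. In tumours, cathepsins that are secreted can degrade matrix, and release of cathepsins from damaged lysosomes is known to promote cell death.

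Values are FPKM, fragments scaled by transcript length and by the total of the library, so levels can be compared between genes. The FPKM sum of a library was 652691 to 663489 in irradiated samples and 693961 to 982553 in controls, while read numbers are unknown. Irradiated libraries lay close together, with a median SD per tested gene of 0.08 on the log2(FPKM + 1) scale, against 0.30 among controls. Control 3 stood nearer to the irradiated libraries (Pearson r 0.960 to 0.966 across genes) than controls 1 and 2 did (0.911 to 0.947). It was also nearer to them than to controls 1 and 2 (0.956 and 0.928), which correlated at 0.989 with each other. Results that rest on 1 control are therefore given against each control. Of 11 epithelial markers, Krt8, Krt18, Itga6 and Itgb4 exceeded 10 FPKM in every library, while Krt5, Krt14, Krt19, Epcam, Cdh1 and Cdh3 stayed at or below 0.49 FPKM and Trp63 reached 1.10 FPKM in control 3 alone. Of the 4 tested, Krt18 was called lower (log2 fold change -1.82, limma adjusted p = 0.0261), where 2.77% of all genes tested were called lower. Without being called, Krt8 lay below every control (-1.29, adjusted p = 0.0686) and Itga6 above every control (0.52, adjusted p = 0.0617), while Itgb4 overlapped (0.10). Of 5 fibroblast markers tested, Col1a1 and Dcn were called higher (log2 fold changes 1.23 and 1.54) and none lower. Over all genes tested, 9.24% were called higher. Col3a1 lay below every control in every irradiated library (-0.37, limma adjusted p = 0.122), while Pdgfra and Pdgfrb overlapped (0.17 and -0.18). The 6 fibroblast markers measured summed to 109 to 129 FPKM in irradiated libraries and 74.5 to 115 FPKM in controls. Endothelial and leukocyte markers summed to at most 0.63 FPKM.

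Irradiated cells were set against controls to ask which transcripts of the acidic lysosome differ after radiotherapy. Most members of either family did not pass the test. Among the pump genes, Atp6v1h, a regulatory subunit of V1, rose to 1.58 times its control level, and no pump gene fell. No cathepsin passed. The test was limma on log2(FPKM + 1) over the 11103 genes that reached 1 FPKM in 3 or more samples, and a gene was called at a Benjamini-Hochberg adjusted p below 0.05. Of 22 pump members, 17 passed the filter and 1 of these was called, against 12.0% of all genes tested (9.24% higher and 2.77% lower). Of 14 cathepsins, 7 passed the filter and 0 were called by limma, with 1 (Ctsd) at an unadjusted p below 0.05. Among the pump members tested, 6 had an unadjusted p below 0.05. The median log2 fold change was 0.19 over the 17 pump members tested and 0.24 over the 7 cathepsins tested, close to the 0.17 of all genes tested. Over all 22 and all 14 members, the filter disregarded, the medians were 0.17 and 0.13, and that of all 17030 genes was 0.06.

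**Figure D1:**
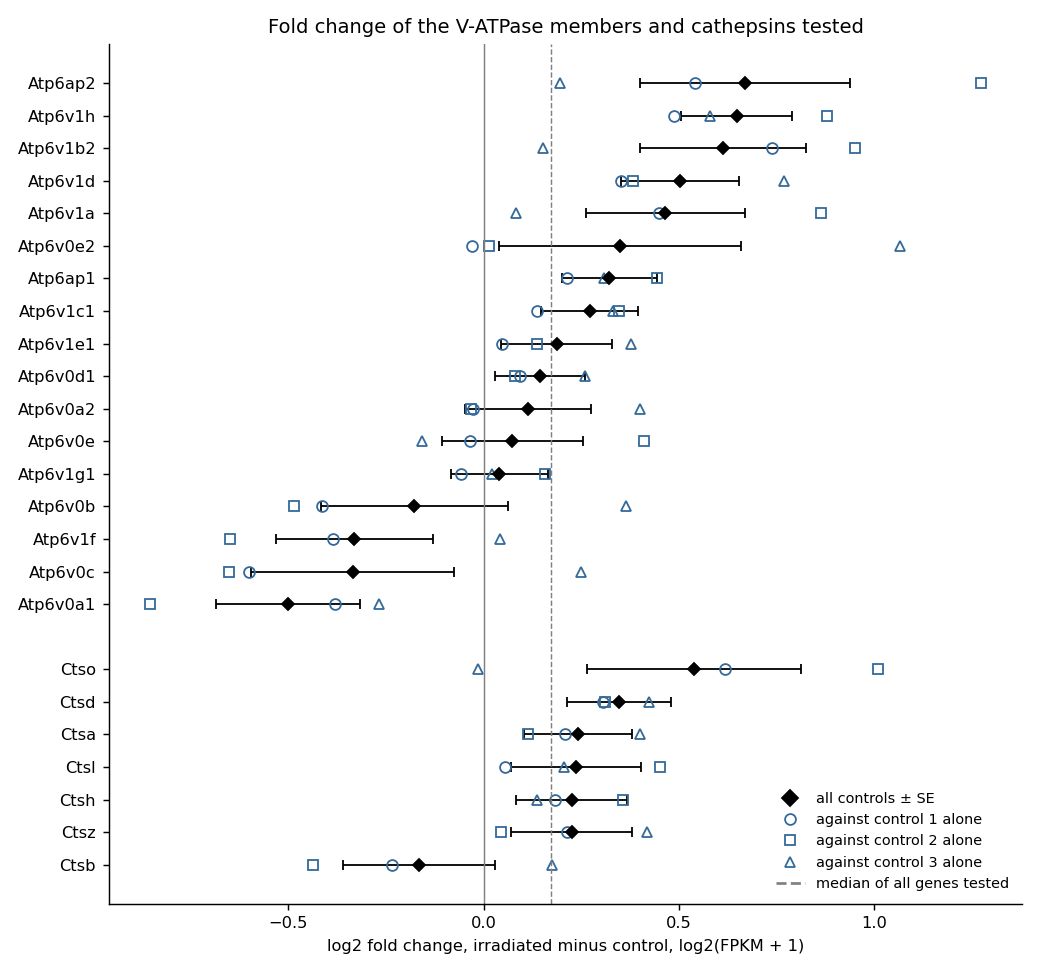
Log2 fold change (log2(FPKM + 1), irradiated minus control) of the 17 V-ATPase members and 7 cathepsins tested. Diamonds show the comparison with all 3 controls and its standard error, open symbols the irradiated mean against each control alone, and the dashed line the median of all genes tested (0.17); Atp6v1h lay right of zero against each control, while Atp6v0c, Atp6v0b and Atp6v1f lay left of zero against controls 1 and 2 and right of it against control 3.

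Groups that did not overlap were more frequent than calls. Of the 17 pump members tested, 8 had every irradiated library above every control and 1, Atp6v0a1, had every irradiated library below. Of the 7 cathepsins tested, 4 lay wholly above the controls and none wholly below. Over all genes tested, the groups did not overlap for 45.4%, with 31.8% higher and 13.7% lower, so the pump share in both directions together is near the background, and 7 cathepsins are too few to set a share against it.

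Promoters were read for the element that the lysosomal regulator TFEB is known to bind, since members of both families are textbook TFEB targets. The 8 letters TCACGTGA, which read the same on both strands, were searched in the RefSeq promoters of build GRCm38.p6, from 250 bases before to 50 after each start. Of 36 members, 27 had a promoter in that set, and 5 of these held the letters, all of them genes that were tested. Among all 27025 genes with a promoter the share was 1.12%, and among the 8952 tested genes with a promoter 2.27%. The 5 are shown with the letters in capitals, 5′ to 3′ on the strand of the gene, to place the element relative to the start.
Ctsd: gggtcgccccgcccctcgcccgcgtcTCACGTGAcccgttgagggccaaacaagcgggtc
Ctsa: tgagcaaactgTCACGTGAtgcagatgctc
Atp6v1a: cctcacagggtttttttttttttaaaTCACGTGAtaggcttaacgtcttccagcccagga
Atp6v0d1: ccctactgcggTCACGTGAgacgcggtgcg
Atp6v0e: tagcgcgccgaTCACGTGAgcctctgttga
The stretches lie at chr7:142387893-142387952 (minus strand) for Ctsd, chr2:164833749-164833778 (plus) for Ctsa, chr16:44139358-44139417 (minus) for Atp6v1a, chr8:105566050-105566079 (minus) for Atp6v0d1 and chr17:26676387-26676416 (plus) for Atp6v0e. Counted with 1 as the first base of the transcript start used in that set and -1 as the base before it, the letters begin at -99 in Ctsd, at -13 and again at 5 in Ctsa, at -132 in Atp6v1a, at -4 in Atp6v0d1 and at 3 in Atp6v0e. That start is the outer end of the RefSeq gene in Ctsd, Atp6v0d1 and Atp6v0e, but lies 901 bases inside the gene in Ctsa and 443 bases inside it in Atp6v1a. The log2 fold changes of these 5 genes were 0.35, 0.24, 0.47, 0.14 and 0.07 in the order shown, and none was called. A match describes letters in a window and shows no binding. Tfeb itself measured 6.90, 5.86 and 7.15 FPKM in irradiated libraries and 7.69, 8.73 and 5.18 FPKM in controls, and its relative Tfe3 measured 15.2, 14.4 and 15.2 FPKM in irradiated libraries and 10.5, 9.92 and 16.01 FPKM in controls. Neither passed limma (adjusted p = 0.775 and 0.262).

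Of the V1 sector, which holds the ATPase, 8 of 11 genes were tested, and 1 rose and none fell, near the 9.24% called higher over all genes tested. The median log2 fold change of these 8 was 0.37. Atp6v1h (NCBI gene 108664, chromosome 1, 5082978 to 5163213, build GRCm38.p6) encodes subunit H, which regulates ATP hydrolysis and couples V1 to V0. It measured 35.2, 33.2 and 35.4 FPKM in irradiated libraries 1 to 3 and 24.4, 18.3 and 22.8 FPKM in controls 1 to 3. All 3 irradiated libraries were above every control. Atp6v1h changed by 0.65 on the log2 scale (SE 0.14, limma adjusted p = 0.0371), and by 0.49, 0.88 and 0.58 against control 1, 2 or 3 alone. Trimmed-mean scaling of the libraries (log2 fold change 0.49, adjusted p = 0.0549), a correction for transcript length and GC content (0.37, adjusted p = 0.109) and a block for the sample number (0.65, adjusted p = 0.0858) each ended the call. So did leaving out control 1 (adjusted p = 0.104), control 2 (0.0561) or irradiated library 1, 2 or 3 (0.202, 0.196 and 0.169), with log2 fold changes of 0.53 to 0.73, but not leaving out control 3 (0.00188). Without control 3, 69.1% of all genes tested were called.

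The catalytic ring subunits followed the same order of groups without passing the test. Atp6v1a, the catalytic subunit A, measured 35.0, 37.5 and 36.1 FPKM in irradiated libraries and 26.2, 19.4 and 34.1 FPKM in controls. Atp6v1b2, the B subunit that most tissues use, measured 54.6, 55.2 and 53.8 FPKM in irradiated libraries and 32.3, 27.7 and 49.0 FPKM in controls. In both genes every irradiated library lay above every control, and control 3 came close to the irradiated values. Their log2 fold changes were 0.47 (SE 0.20, limma adjusted p = 0.141) and 0.61 (SE 0.21, adjusted p = 0.0893), and against control 3 alone they were 0.08 and 0.15. The level of Atp6v1b2 was 1.56, 1.47 and 1.49 times that of its ring partner Atp6v1a in irradiated libraries and 1.23, 1.43 and 1.44 times in controls.

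Subunits of the rotor and stalks were less uniform. Atp6v1d, the D subunit of the central shaft, measured 76.6, 83.1 and 80.7 FPKM in irradiated libraries and 62.5, 61.2 and 46.5 FPKM in controls. Here control 3 was farthest from the irradiated libraries, and the log2 fold change of 0.50 did not pass (SE 0.15, limma adjusted p = 0.0679). Atp6v1c1, subunit C of the stalk, measured 66.1, 71.3 and 74.4 FPKM in irradiated libraries and 64.0, 55.3 and 55.8 FPKM in controls (log2 fold change 0.27, adjusted p = 0.155). The peripheral stalk subunits Atp6v1e1 and Atp6v1g1 overlapped between groups, with means of 76.0 ± 6.38 and 136 ± 2.90 FPKM in irradiated cells and 66.8 ± 7.83 and 133 ± 10.0 FPKM in controls (SD, n = 3 each). Atp6v1f, the small F subunit of the shaft, measured 156, 184 and 164 FPKM in irradiated libraries and 219, 263 and 163 FPKM in controls. Controls 1 and 2 were above the irradiated libraries there and control 3 was among them. Its log2 fold change of -0.33 (limma adjusted p = 0.250) was 0.04 against control 3 alone and 0.08 after the length and GC correction.

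The V1 isoforms of other tissues were close to absent. Atp6v1g2, the G subunit of neurons, measured 0.90, 0.72 and 1.19 FPKM in irradiated libraries and 0.76, 0.87 and 0.47 FPKM in controls. Atp6v1c2 and Atp6v1e2, whose expression is restricted to few tissues, stayed at or below 0.18 FPKM in every library. Atp6v1fnb was listed at 0 in every irradiated library and at 0.16, 0 and 0 FPKM in controls 1 to 3. These 4 genes did not pass the filter and were not tested.

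Of the V0 proton channel 7 of 8 genes were tested and 0 were called by limma, with 1 (Atp6v0a1) at an unadjusted p below 0.05 and a median log2 fold change of 0.07. Its proteolipids differed widely among controls. Atp6v0c, which encodes the c subunit of the proteolipid ring, was the most abundant pump member over all 6 libraries. It measured 366, 394 and 419 FPKM in irradiated libraries and 595, 617 and 330 FPKM in controls. The irradiated libraries lay below controls 1 and 2 and above control 3. The log2 fold change was -0.33 (SE 0.26, limma adjusted p = 0.358) with all controls and 0.25 against control 3 alone. Atp6v0b, the second proteolipid of the ring, behaved alike, at 156, 155 and 157 FPKM in irradiated libraries and 208, 219 and 121 FPKM in controls (log2 fold change -0.18, adjusted p = 0.592; 0.37 against control 3 alone). Without control 3, both were called lower by limma (adjusted p = 0.000821 and 0.00252), in a setting where 69.1% of all genes tested were called. The transcripts of Atp6v0b and Atp6v1f are short, at 1000 and 806 bases, while that of Atp6v0c has 2567. Atp6v1g1, at 1135 bases, had a log2 fold change of 0.04. Across all genes with a known length, the fold change increased with transcript length against controls 1 and 2 (Spearman rho 0.453 and 0.407, 10930 genes) and little against control 3 (0.0850). Over the 24 members tested, rho was 0.230, 0.273 and 0.0191 against control 1, 2 and 3. The part of transcript length in the V0 values was not tested beyond that correction, after which Atp6v0b measured 0.24 and Atp6v0c -0.22.

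The other V0 subunits did not pass the test. Atp6v0d1, subunit d that joins the ring to the shaft, measured 51.0, 53.7 and 52.3 FPKM in irradiated libraries and 49.0, 49.3 and 43.5 FPKM in controls. The groups did not overlap, but the difference was small (log2 fold change 0.14, limma adjusted p = 0.372), with -0.02 after trimmed-mean scaling and a call after the length and GC correction (0.43, adjusted p = 0.0486). Atp6v0e, the small e subunit, measured 222, 201 and 226 FPKM in irradiated libraries and 221, 162 and 241 FPKM in controls, with full overlap (0.07, adjusted p = 0.775). Its isoform Atp6v0e2 was near 2 FPKM in every library except control 3, at 1.57, 2.28 and 2.13 FPKM in irradiated libraries and 2.04, 1.95 and 0.42 FPKM in controls.

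**Figure D2:**
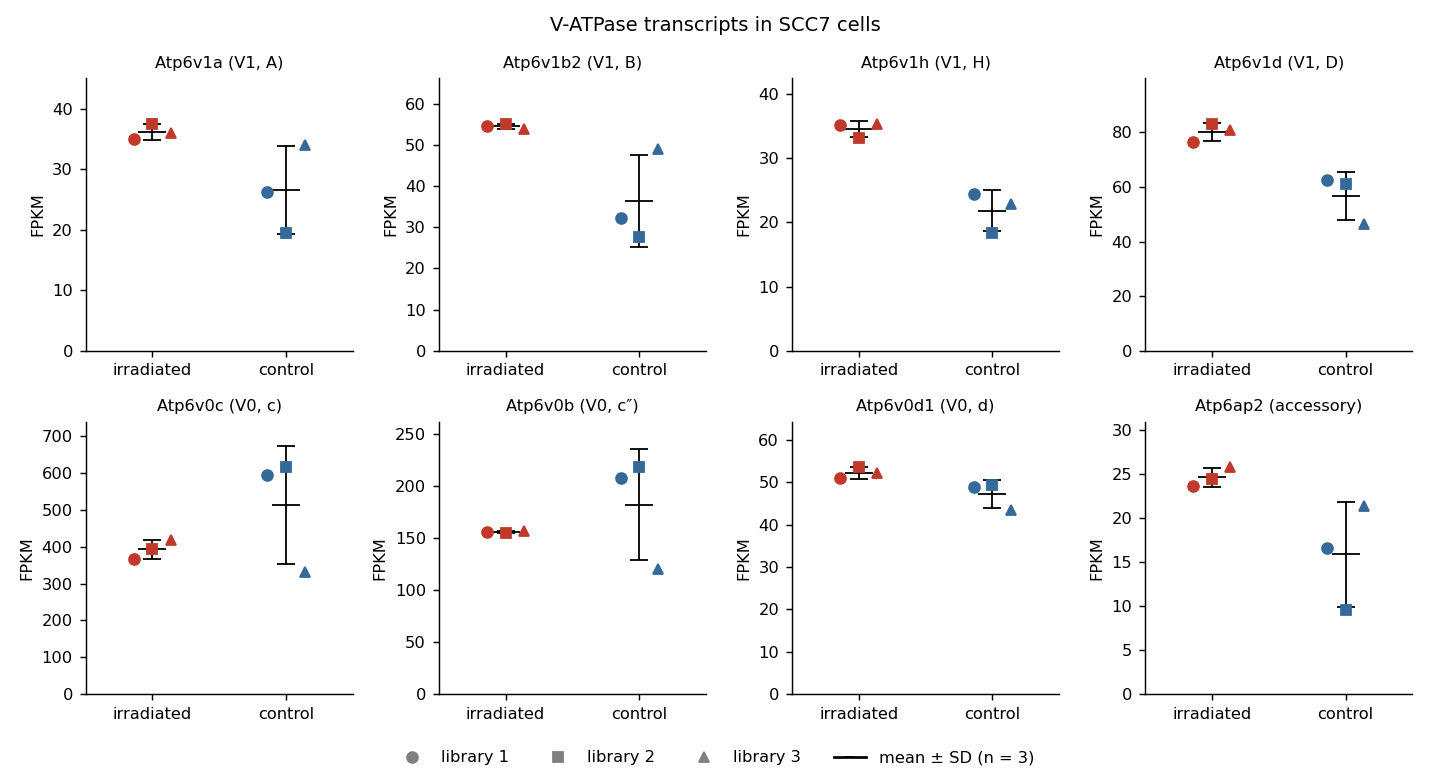
FPKM of 8 V-ATPase members in the 3 irradiated libraries (left of each panel) and the 3 controls (right), with the mean and SD (n = 3). Irradiated libraries cluster tightly in each panel, and control 3 (triangles) lies closest to them for Atp6v1a, Atp6v1b2 and Atp6ap2 but farthest from them for Atp6v1d and Atp6v0d1.

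The a subunit has isoforms that direct the pump to different membranes, and the shares of a3 and a1 among them did not overlap between the groups. Tcirg1 (NCBI gene 27060, chromosome 19, 3896050 to 3907133) encodes the a3 isoform of lysosomes and of the osteoclast surface. It measured 65.4, 74.1 and 60.1 FPKM in irradiated libraries and 36.3, 45.7 and 40.3 FPKM in controls, and all irradiated libraries were above all controls. Tcirg1 rose (log2 fold change 0.69, SE 0.14, limma adjusted p = 0.0326), by 0.85, 0.53 and 0.71 against control 1, 2 or 3 alone. Tcirg1 was not called after trimmed-mean scaling (0.53, adjusted p = 0.0742) or under the block (0.69, adjusted p = 0.0817), nor once control 1 (0.137) or irradiated library 1, 2 or 3 (0.185, 0.197 and 0.143) was omitted. Atp6v0a1 (NCBI gene 11975, chromosome 11, 101009422 to 101063719), the a1 isoform best known from neurons, went the other way. It measured 17.4, 20 and 16.9 FPKM in irradiated libraries and 23.8, 33.4 and 21.9 FPKM in controls, with no overlap but without passing the test (log2 fold change -0.50, SE 0.18, adjusted p = 0.10).

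Set against each other within a library, which removes the scale of the library, Tcirg1 was 3.76, 3.70 and 3.56 times Atp6v0a1 in irradiated libraries and 1.53, 1.37 and 1.84 times in controls. The ratio was higher in 3 of 3 irradiated libraries than in any control, a log2 difference of 1.23 that was 1.27, 1.43 and 1.00 against control 1, 2 or 3 alone and 1.47 after the length and GC correction. A two-sided exact permutation test gave p = 0.1, the smallest value that 3 samples against 3 can give, and the ratio was chosen after the values were seen. Tcirg1 held 69.1%, 69.6% and 66.3% of the FPKM of the 4 a isoforms in irradiated libraries and 50.2%, 49.98% and 56.2% in controls. Atp6v0a1 held 18.4%, 18.8% and 18.6% in irradiated libraries and 32.8%, 36.5% and 30.6% in controls. The a2 isoform of the Golgi and endosomes, Atp6v0a2, measured 11.2, 11.4 and 12.6 FPKM in irradiated libraries and 11.9, 12.0 and 8.62 FPKM in controls, which overlap (log2 fold change 0.11, limma adjusted p = 0.610). Atp6v0a4, the isoform of kidney intercalated cells, stayed at or below 1.05 FPKM. Since Tcirg1 also marks osteoclasts, markers of that cell type were summed. Of the 4 measured, 2 were tested and Tnfrsf11a was called higher, where 9.24% of all genes tested were called higher. Together the 4 markers added up to 4.88 to 5.69 FPKM in irradiated libraries and 2.88 to 3.23 FPKM in controls. In 3 of the 4 (Acp5, Tnfrsf11a and Ocstamp) every irradiated library was above every control, while Dcstamp overlapped at or below 0.10 FPKM. Among all genes tested, 31.8% lay wholly above the controls. Ocstamp was not tested and stayed at or below 0.38 FPKM, so this share does not cover it. The part of these markers in the Tcirg1 result was not tested.

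**Figure D3:**
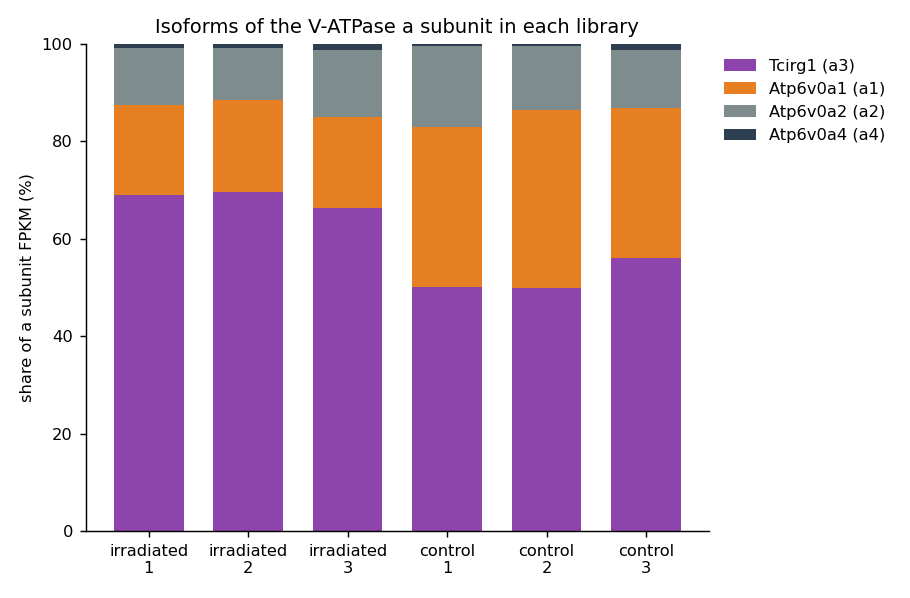
Share of each isoform in the summed FPKM of the V-ATPase a subunit, in percent, in the irradiated libraries (left 3 bars) and the controls (right 3 bars). Tcirg1 takes 66.3% to 69.6% in irradiated libraries and 49.98% to 56.2% in controls.

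Both accessory proteins of the pump lay above every control in every irradiated library, without passing the test. Atp6ap1, which helps to assemble V0, measured 99.2, 98.9 and 98.0 FPKM in irradiated libraries and 84.9, 72.3 and 79.5 FPKM in controls. Its log2 fold change was 0.32 (SE 0.12, limma adjusted p = 0.105), and it was called after quantile normalization (0.48, adjusted p = 0.0456), after the length and GC correction (0.48, adjusted p = 0.0444) and without control 3 (0.33, adjusted p = 0.0201). These settings called 11.2%, 16% and 69.1% of all genes tested. Atp6ap2, also known as the prorenin receptor, measured 23.7, 24.5 and 25.8 FPKM in irradiated libraries and 16.6, 9.59 and 21.4 FPKM in controls (log2 fold change 0.67, SE 0.27, adjusted p = 0.120). Among 12 tested genes of pump assembly and regulation, a list that includes Tcirg1, 2 rose and none fell, where 9.24% of all genes tested were called higher. Besides Tcirg1 this was Wdr7, a partner of the DMXL proteins that promote pump assembly, with 3.93, 4.55 and 4.39 FPKM in irradiated libraries and 1.71, 1.45 and 2.75 FPKM in controls (log2 fold change 0.86, SE 0.19, adjusted p = 0.0382). The number called on this list was 0, 1 and 7 without control 1, 2 or 3, and 0 without irradiated library 1, 2 or 3. Of all genes tested, 1.63%, 4.96% and 69.1% were called without control 1, 2 or 3. Without an irradiated library it was 0.516% to 0.911%.

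Cathepsin transcripts were among the abundant messages of SCC7 cells in both groups. The summed FPKM of the 14 cathepsins was 3555, 3765 and 3618 in irradiated libraries and 3642, 3599 and 3058 in controls, and Ctsb, Ctsl, Ctsd, Ctsz and Ctsa made up 99.6% to 99.8% of it in every library. Ctsb, cathepsin B, measured 1259, 1280 and 1276 FPKM in irradiated libraries and 1498, 1721 and 1126 FPKM in controls. The irradiated libraries lay between control 3 and the other controls, and no difference was called (log2 fold change -0.17, SE 0.20, limma adjusted p = 0.540, and 0.18 against control 3 alone). Ctsl, cathepsin L, measured 1295, 1378 and 1271 FPKM in irradiated libraries and 1265, 960 and 1139 FPKM in controls. The irradiated values of Ctsl lay above the controls by a narrow margin (0.24, SE 0.17, adjusted p = 0.308).

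Ctsd (NCBI gene 13033, chromosome 7, 142375910 to 142387827), the aspartic protease cathepsin D, is among the 5 members with TCACGTGA in the promoter and had the smallest p of the cathepsins. It measured 564, 598 and 596 FPKM in irradiated libraries and 474, 472 and 437 FPKM in controls. The groups were well apart but Ctsd did not pass (log2 fold change 0.35, SE 0.13, limma adjusted p = 0.107), and the difference was 0.31, 0.31 and 0.42 against control 1, 2 or 3 alone. Ctsd was called after quantile normalization (0.75, adjusted p = 0.0159), after the length and GC correction (0.59, adjusted p = 0.0238) and without control 3 (0.31, adjusted p = 0.0177). These settings called 11.2%, 16% and 69.1% of all genes tested. Within a library, which removes the scale, Ctsd stood at 0.448, 0.467 and 0.467 times Ctsb in irradiated cells and 0.317, 0.274 and 0.388 times in controls. The ratio of Ctsl to Ctsb overlapped between groups, at 1.03, 1.08 and 0.996 in irradiated cells and 0.845, 0.558 and 1.01 in controls. Ctsb thus took 34.0% to 35.4% of the cathepsin FPKM in irradiated libraries and 36.8% to 47.8% in controls, and Ctsd 15.9% to 16.5% in irradiated libraries and 13.0% to 14.3% in controls.

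Ctsz, the carboxypeptidase cathepsin Z, measured 267, 319 and 296 FPKM in irradiated libraries and 253, 284 and 219 FPKM in controls (log2 fold change 0.23, limma adjusted p = 0.305). Ctsa, cathepsin A, measured 155, 175 and 168 FPKM in irradiated libraries and 143, 153 and 125 FPKM in controls (0.24, adjusted p = 0.225). Irradiated libraries were above all controls for Ctsa and overlapped them for Ctsz. Quantile normalization called both (adjusted p = 0.0361 for Ctsa and 0.0418 for Ctsz), and the length and GC correction called Ctsz (0.0284). At lower levels, Ctso, cathepsin O, measured 9.78, 9.53 and 7.24 FPKM in irradiated libraries and 5.37, 3.85 and 8.87 FPKM in controls. Its log2 fold change was 0.54 (SE 0.27, adjusted p = 0.187), and -0.01 against control 3 alone. Ctsh, the aminopeptidase cathepsin H, measured 4.11, 3.41 and 3.28 FPKM in irradiated libraries and 3.04, 2.58 and 3.17 FPKM in controls (0.23, adjusted p = 0.266, and -0.21 after quantile normalization).

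**Figure D4:**
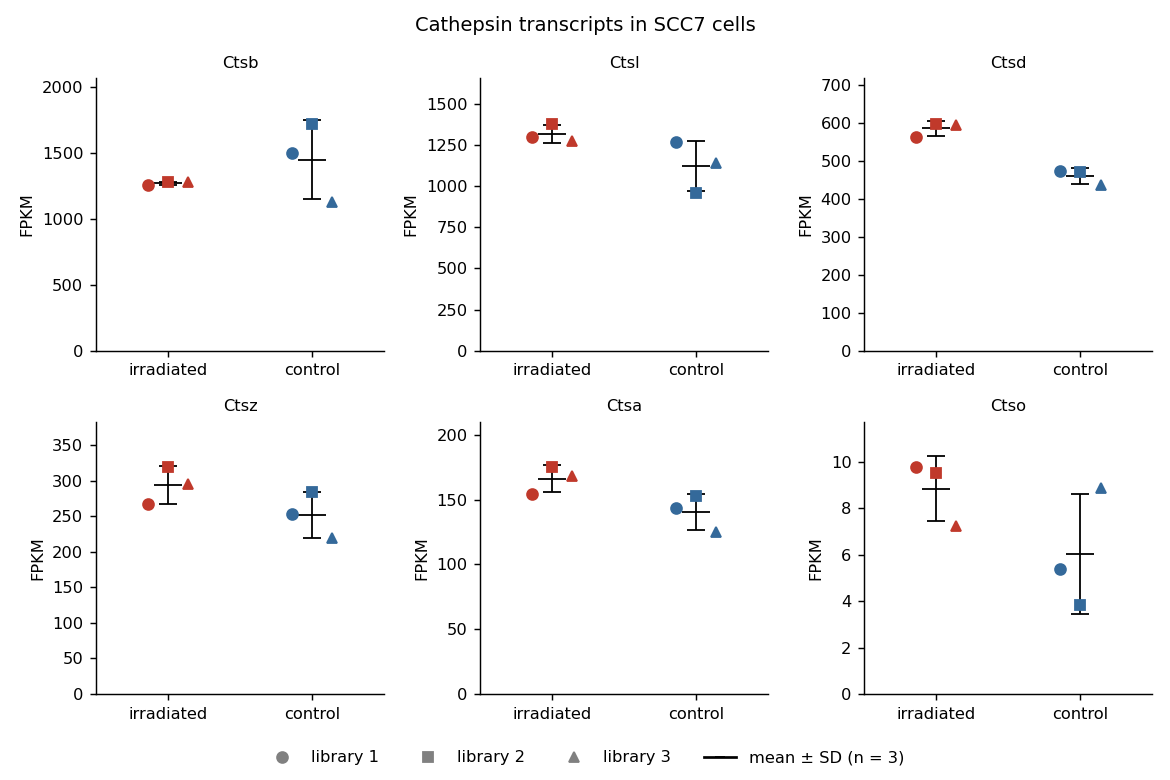
FPKM of the 6 cathepsins with the highest mean over all libraries, in the 3 irradiated libraries (left of each panel) and the 3 controls (right), with the mean and SD (n = 3). Ctsd is separated between the groups, with 564 to 598 FPKM in irradiated cells and 437 to 474 FPKM in controls, while Ctsb, Ctsz and Ctso overlap.

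The other 7 cathepsins, among them those typical of immune cells and bone, did not exceed 1.17 FPKM in any library. Ctsk, the collagenase of osteoclasts, measured 0.93, 1.04 and 0.39 FPKM in irradiated libraries and 0.62, 1.17 and 0.74 FPKM in controls. Ctss, which processes the invariant chain of MHC class II and is induced by interferon in immune cells, measured 0.16, 0.12 and 0.12 FPKM in irradiated libraries and 0, 0 and 0.08 FPKM in controls. Ctsc, the activator of granule proteases, was listed at 0 apart from 0.01 FPKM in irradiated library 3. Ctse, Ctsw, Ctsj and Ctsq did not exceed 0.14 FPKM in any library. These 7 genes did not pass the filter and were not tested. The substrate of Ctss in antigen presentation, the invariant chain Cd74, did rise, with 5.38, 7.38 and 3.90 FPKM in irradiated libraries and 1.99, 0.87 and 2.71 FPKM in controls (log2 fold change 1.22, SE 0.31, limma adjusted p = 0.0489). That made 1 of 3 tested genes of the class II pathway, where 9.24% of all genes tested were called higher. H2-DMb1 lay at 0.47 (limma adjusted p = 0.139) and H2-DMa at -0.22 (adjusted p = 0.425), neither of them called. The Cd74 call was lost under 10 of the 13 refits that gave a value (adjusted p = 0.0563 to 0.209). Macrophages carry several of these genes. Of the 11 markers of macrophages 3 were tested, and Lyz2 was called higher, where 9.24% of all genes tested were called higher. Lyz2 and C1qb stayed below 1 FPKM in every control, so they passed the filter only through the irradiated libraries, where they were high. The summed level of the 11 markers was 9.88 to 11.5 FPKM in irradiated libraries and 3.87 to 5.63 FPKM in controls. In 5 of the 11 (Lyz2, C1qb, Mrc1, Cx3cr1 and Itgam) every irradiated library was above every control, and 6 overlapped. Among all genes tested, 31.8% lay wholly above the controls. Mrc1, Cx3cr1 and Itgam were not tested and stayed at or below 0.42 FPKM, so this share does not cover them. Adgre1 and C1qa were listed at 0 in every irradiated library and reached at most 0.07 FPKM in controls, and the leukocyte marker Ptprc stayed at or below 0.03 FPKM in every library. Their part in the low cathepsin values was not tested.

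Inhibitors of cathepsins and related proteases, a list of cystatins, CTLA-2 proteins and serpins, had 9 members tested, of which 1 rose and none fell, near the 9.24% called higher over all genes tested. Their median log2 fold change was -0.24, against 0.17 over all genes tested. Cst3, the most abundant of the list, lay below every control in every irradiated library (-0.28, limma adjusted p = 0.211). Cstb, the next in level, overlapped (0.32, adjusted p = 0.256), and neither was called. Serpinb1a, a serpin that inhibits neutrophil serine proteases including cathepsin G, measured 1.73, 1.37 and 1.17 FPKM in irradiated libraries and 0.59, 0.60 and 0.66 FPKM in controls (log2 fold change 0.58, SE 0.13, limma adjusted p = 0.0409). Serpinb1a passed the filter only through the irradiated libraries, so the 1 call of this list rests on a selection by the group where it was high. The call was lost after quantile normalization (0.06, adjusted p = 0.775) and trimmed-mean scaling (0.0553), with the block (0.101) and without control 1 (0.151) or 2 (0.0874). Ctla2b measured 8.57, 3.75 and 4.69 FPKM in irradiated libraries and 9.12, 10.2 and 15.4 FPKM in controls, a log2 fold change of -0.95 that did not pass (adjusted p = 0.0785).

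The medians of pump and cathepsins lay close together. The median over the cathepsins tested exceeded that over the pump members tested by 0.05 on the log2 scale. In single libraries, the family medians were also taken over each gene's deviation from its mean. Their difference had an SD of 0.07 between libraries of a group, which does not measure the spread of the 0.05. Taking each irradiated library against each control, the difference ran from 0.03 to 0.16 against controls 1 and 2 and from -0.12 to 0.06 against control 3. The irradiated mean was above control 1, 2 and 3 in 9, 12 and 15 of the 17 pump members tested and in 6 of the 7 cathepsins tested against each control. Over all 11103 genes tested it was above them in 6787, 7050 and 6488. In irradiated libraries cathepsins took 0.545% to 0.567% of the library FPKM and pump members 0.243% to 0.252%. In controls these shares were 0.366% to 0.441% and 0.185% to 0.212%. These shares do not overlap between groups, the summed FPKM of cathepsins does, and the FPKM sum of the library, their denominator, was higher in every control. The summed FPKM of the pump members was 1583, 1646 and 1663 in irradiated libraries and 1858, 1814 and 1432 in controls.

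Several genes of other lysosomal lists rose in these libraries. Of 36 lysosomal hydrolases outside the cathepsins, all tested, 7 rose and none fell, and the median log2 fold change was 0.32. Of 25 tested genes of the lysosomal membrane and its activator proteins, 7 rose and none fell, with a median of 0.53. The 7 include Slc11a1, which passed the filter only through the irradiated libraries. Among all genes tested 9.24% were called higher and the median was 0.17. Every irradiated library lay above every control in 15 hydrolases and 18 membrane genes, and below every control in 3 and 1. Over all genes tested, 31.8% lay wholly above and 13.7% wholly below. Those below were Hexa, Fuca1 and Naglu (log2 fold changes -0.25, -0.30 and -0.52) and Cd63, the most abundant of the membrane list (-0.73), none of them called. Dpp7, a lysosomal dipeptidyl peptidase, measured 12.6, 13.5 and 14.6 FPKM in irradiated libraries and 6.91, 6.97 and 5.23 FPKM in controls (log2 fold change 0.99, SE 0.15, limma adjusted p = 0.0135). Tpp1, the tripeptidyl peptidase lost in a childhood form of neuronal ceroid lipofuscinosis, measured 76.6, 82.6 and 75.9 FPKM in irradiated libraries and 33.1, 23.1 and 43.4 FPKM in controls (1.26, SE 0.22, adjusted p = 0.0232). All irradiated libraries lay above all controls in both genes. Also called were Glb1, Gla and Neu1, which remove sugars from glycans and glycolipids, with log2 fold changes between 0.50 and 0.78.

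Npc1, the cholesterol exporter of the lysosome, measured 15.87, 15.87 and 16.00 FPKM in irradiated libraries and 7.05, 5.90 and 8.10 FPKM in controls (log2 fold change 1.09, SE 0.14, limma adjusted p = 0.00765). Slc11a1, a metal transporter of phagocyte lysosomes, measured 1.15, 1.38 and 1.63 FPKM in irradiated libraries and 0.17, 0.12 and 0.09 FPKM in controls (1.08, adjusted p = 0.00522). It passed the filter only through the irradiated libraries, so its call rests on a selection by the group where it was high. The macrophage markers given above with the low cathepsins were also higher in sum. Lyz2, which passed the filter only through the irradiated libraries, had a called log2 fold change of 1.41 (limma adjusted p = 0.00745). The part of the macrophage markers in the lysosomal lists was not tested. The other 5 called were the calcium channels Mcoln1 and Tpcn1, the metal transporter Slc11a2, the lipid transporter Abca2 and the ganglioside activator Gm2a, with log2 fold changes between 0.53 and 1.21. Among sorting factors 2 of 15 tested rose and none fell, where 9.24% of all genes tested were called higher. They were Gnptab, which makes the mannose 6-phosphate tag that routes cathepsins to the lysosome, at 0.96 (adjusted p = 0.0291), and Vps26a, a retromer subunit, at 0.63 (adjusted p = 0.0310). Among 15 tested regulators of lysosomal signalling 1 rose and none fell, near the same 9.24%. It was Fnip2, a partner of folliculin, at 0.99 (adjusted p = 0.0308). Mtor lay above every control at 0.46 (adjusted p = 0.0745) and Lamtor4 below every control at -1.08 (adjusted p = 0.0773), neither of them called. These counts changed with the libraries included. Without control 1, 2 or 3, the hydrolases called higher were 0, 3 and 23 (with 6 called lower without control 3), and the membrane genes 1, 3 and 20 (with 2 lower). Of all genes tested, 1.63%, 4.96% and 69.1% were called in these settings, in either direction. Without irradiated library 1, 2 or 3, 0 of either list were called, against 0.516%, 0.599% and 0.911% of all genes. Quantile normalization called 4 hydrolases and 3 membrane genes, and trimmed-mean scaling 4 of each. These called 11.2% and 10.5% of all genes. With the sample number as a block, 0 hydrolases and 2 membrane genes were called, against 2.7% of all genes. No test of the difference between these lists and the pump or cathepsins was made.

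**Figure D5:**
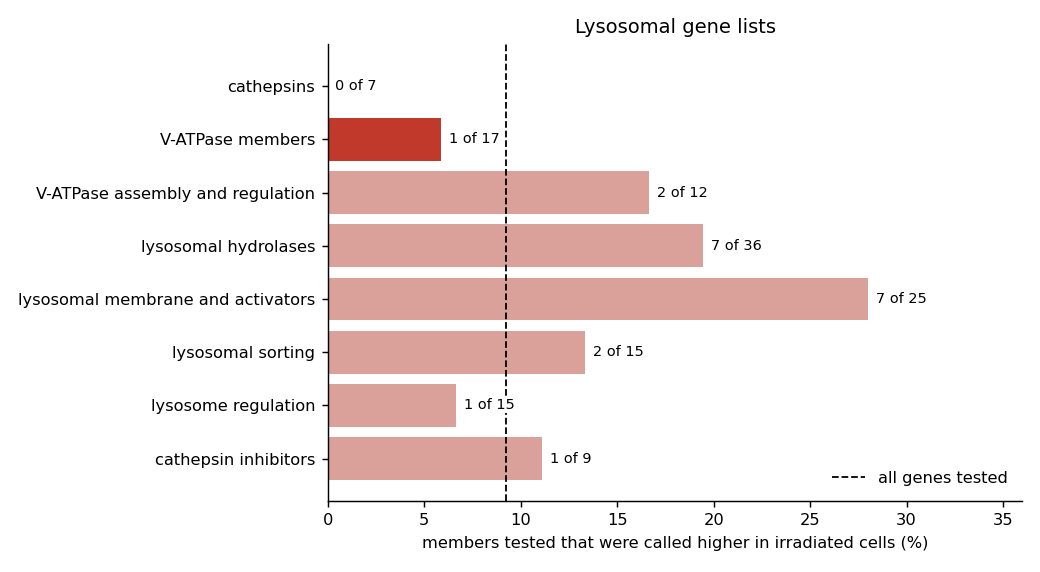
Percent of tested members called higher in irradiated cells by limma at an adjusted p below 0.05, for the cathepsins, the V-ATPase members and 6 further lysosomal lists, with the numbers beside each bar and the share among all genes tested as a dashed line (9.24%). Cathepsins (0 of 7) and V-ATPase members (1 of 17) lie left of it, and hydrolases (7 of 36) and membrane genes (7 of 25) right of it. Slc11a1 among the membrane genes and Serpinb1a among the inhibitors passed the filter only through the irradiated libraries.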

How the data were processed

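RNA was sequenced from 3 irradiated and 3 control samples of SCC7 cells after DNase treatment and removal of ribosomal RNA, per the labels' protocols. The authors deposited FPKM values with 2 decimals, per the file headers. The submitters' processing notes name HISAT and GRCm38.p6, while the sources used here do not give the counting tool, annotation or filters. FPKM holds no read number, so the depth is unknown and counting intervals are left out. Reads of near-identical genes could be assigned to either copy.

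From these values, log2(FPKM + 1) was fitted by limma 3.58.1 (R 4.3.3, trend and robust options) over the 11103 genes that reached 1 FPKM in 3 or more samples, with 2 groups and Benjamini-Hochberg adjustment over these genes. In simulated data of this comparison with 10930 genes, 50% of 100 genes changed 2-fold and 83% of 100 changed 4-fold were recovered, with 9 unchanged genes called. The simulation drew independent normal noise, with the same SD for both groups in each gene. The changed genes were taken from those with a mean log2(FPKM + 1) above 2. Unequal spread of the groups and shifts shared by the genes of a library were not simulated, so recovery and false calls in the real data may differ. Fold changes are irradiated minus control and understate changes of low genes. The equal-variance model met unequal spread, so p-values are approximate. Coordinates and promoters came from RefSeq (GRCm38.p6, 16976 of 17030 genes matched), and the length and GC content of the longest transcript from GENCODE M21 (16424 genes). Alternatives were quantile and trimmed-mean scaling, no filter or 5 FPKM, a pseudocount of 0.1, limma without its options, a length and GC correction by splines, the sample number as a block, each control alone, and each sample left out. The members and lists were chosen with earlier results of these data known. Genes are named where they were called, among the 5 most abundant of a family, on a short list of subunits and cathepsins, or among the 2 smallest p of a further list. Members and called genes beyond these, Tfeb, Tfe3, Cd63, Hexa, Fuca1, Naglu, Lamtor4, Cst3, Cstb, H2-DMa and marker genes were added after their values were seen. Some genes that these rules name are not reported here.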

Additional observations from a re-analysis of the deposited data

How the results depend on the processing

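The number of genes called over the whole table was 1334, and it was 727 with the filter at 5 FPKM, 300 with the replicate block, and 56 to 7638 when a sample was left out (180, 548 and 7638 without control 1, 2 or 3). V-ATPase members called were 3 after quantile normalization, 0 after trimmed-mean scaling, 2 after the length and GC correction, 0 with the replicate block and 0 to 10 when a sample was left out (6 higher and 4 lower without control 3, where 69.1% of all genes were called). Cathepsins called were 4 after quantile normalization, 2 after the length and GC correction, 0 with the replicate block and 0 to 3 when a sample was left out. The V-ATPase median of 0.19 was 0.31 after quantile normalization, 0.027 after trimmed-mean scaling, 0.31 after the length and GC correction, 0.047 against control 1 alone and 0.092 (without control 3) to 0.26 when a sample was left out. The cathepsin median of 0.24 was 0.48 after quantile normalization, 0.080 after trimmed-mean scaling and 0.13 without a filter. Their difference of 0.05 was 0.17 after quantile normalization, -0.040 without a filter, -0.029 after the length and GC correction, 0.16, 0.15 and -0.054 against control 1, 2 or 3 alone, and 0.00021 to 0.16 when a sample was left out. Against a median of 0.17 over all genes tested as deposited, quantile normalization gave -0.02 (645 genes called higher and 601 lower) and trimmed-mean scaling 0.03 (719 higher and 442 lower).

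Of 633 recomputed fold changes of 38 named genes, 30 in 13 genes changed sign. Quantile normalization gave Atp6v0e2 -0.17, Atp6v0a2 -0.14, Ctsh -0.21, H2-DMb1 -0.0041, Atp6v0b 0.065, Atp6v0c 0.12 and Ctsb 0.37. Trimmed-mean scaling gave Atp6v1g1 -0.12, Atp6v0e -0.089, Atp6v0a2 -0.037 and Atp6v0d1 -0.015. The length and GC correction gave Atp6v0a2 -0.055, Atp6v1f 0.075, Atp6v0b 0.24 and Ctsl -0.037. Against control 1 alone, Atp6v0e2, Atp6v1g1, Atp6v0e and Atp6v0a2 measured -0.030, -0.058, -0.035 and -0.027, and against control 2 alone Atp6v0a2 measured -0.032. Against control 3 alone, Atp6v0e, Atp6v1f, Atp6v0b, Atp6v0c, Ctsb and Ctso measured -0.16, 0.042, 0.37, 0.25, 0.18 and -0.013. When a sample was left out, Atp6v0e2 ranged from -0.0085 to 0.54, Atp6v0a2 from -0.029 to 0.19, Atp6v1g1 from -0.018 to 0.090 and Atp6v0e from -0.096 to 0.19. The cause of these changes was not tested.

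Same-numbered samples did not deviate together (correlations across genes of -0.115, 0.020 and -0.159), and no irradiated sample correlated best with the control of its own number. The deviations were taken from the mean of each group and depend on each other, so this check cannot exclude a pairing or a shared batch. Comparisons with a single control gave fold changes and no calls. Unknown depth limits what can be said of genes near 0 FPKM.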
